A study of Homo sapiens and Mus musculus with 16 samples.

Results

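SMAD proteins carry the signal of transforming growth factor-β (TGF-β) and bone morphogenetic protein (BMP) receptors to the nucleus, and the results below follow their 8 mRNAs between P-bodies and cytoplasm. The family was given as the symbols SMAD1, SMAD2, SMAD3, SMAD4, SMAD5, SMAD6, SMAD7 and SMAD9, and it was chosen by its P-body to cytoplasm ratios and its levels in these same libraries. All 8 symbols were found among the 22286 genes of the human count table, and all 8, written in mouse style, among the 15881 genes of the mouse table. Because those ratios and levels chose the family, the members' values are given as a description, without a p-value. Where a member is said to be called, the call only labels the side of a threshold on which its value fell. It is not a test of the member or of the family.

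A ligand dimer brings a type II receptor and a type I receptor kinase together, and the type I receptor phosphorylates a receptor-regulated SMAD. SMAD1, SMAD5 and SMAD9 follow BMP receptors, SMAD2 and SMAD3 follow TGF-β, activin and nodal receptors, SMAD4 is the partner of both, and SMAD6 and SMAD7 inhibit the pathway. The pathway patterns the early embryo and acts in pluripotency, endoderm formation and neural induction. P-bodies are cytoplasmic condensates of RNA and protein that hold mRNAs with little translation, and LSM14A is one of their proteins.

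The 16 libraries came from 4 cell types, each with 2 libraries of P-bodies and 2 of cytoplasm, the cytoplasm being an aliquot taken before sorting. Per the study's methods, this cytoplasmic fraction was a resuspended pellet, spun down from lysate cleared of nuclei, and P-bodies were sorted from it. Cytoplasm levels given below are levels in that fraction, which still held P-bodies, and not in whole cytoplasm. HEK293T, a human embryonic kidney line, was used as HEK293T-LSM14a-GFP, liver bud progenitors and neurons at day 20 were derived from UCLA4-LSM14a-GFP, a line of human embryonic stem cells, and the mouse embryonic stem cells (mESC) were KH2-LSM14a-GFP cells kept in serum-LIF. Every group therefore carried a GFP fusion of LSM14A, introduced with lentivirus in HEK293T and mESC and placed at the AAVS1 locus in UCLA4, and P-bodies were what a particle sorter took on GFP. HEK293T and mESC libraries are labelled total RNA and were randomly primed, whereas liver bud progenitor and neuron libraries are labelled polyA RNA, so that library kind and cell type cannot be told apart between those pairs. The hepatic protocol supplied activin A, BMP4 or both at each of its steps. A BMP receptor inhibitor was given beside activin A at an early step, and a TGF-β receptor inhibitor beside BMP4 at the next. At the last step both ligands were given without these inhibitors. The neural protocol supplied a TGF-β receptor inhibitor in the medium for neural progenitors, and the medium listed for neuronal differentiation held none. The study describes the 2 libraries of a group as biologically independent, while the labels name no separate cultures.

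Libraries held between 6368953 and 17972284 counts, and 3 counts, the floor of detection used here, equalled between 0.167 and 0.471 CPM (counts scaled to a common library size). Ribosomal RNA genes took between 3.09% and 24.9% of the counts and were lower in P-bodies than in cytoplasm of every cell type. The neuron P-body libraries agreed least, with a Spearman rho of 0.915 across genes, against 0.962 to 0.988 in the other 7 groups. In neuron cytoplasm all 8 neuron markers passed 10 CPM and summed to 10583 and 10685 CPM. All 6 neural progenitor markers also passed there and summed to 589 and 589.5 CPM. That sum was not particular to neurons. It was 591 and 600 CPM in liver bud progenitor cytoplasm and 674 and 664 CPM in HEK293T cytoplasm, with 3 of 6 passing in each. TOP2A, one of these markers, had a mean of 196 CPM in neuron, 465 CPM in liver bud progenitor and 505 CPM in HEK293T cytoplasm. In the same order NES had 208, 49.4 and 0.82 CPM, SOX1 18.1, 0.14 and 0.04 CPM and HES5 11.2, 0 and 0 CPM. PAX6 had 88.5, 4.76 and 148 CPM and SOX2 67.9, 76.4 and 15.2 CPM. Taken singly, NES, SOX1 and HES5 were thus highest in neurons, and PAX6, SOX2 and TOP2A were not. In mESC all 6 mouse pluripotency markers passed. In liver bud progenitor cytoplasm 5 of 8 liver bud markers passed 10 CPM, from PROX1 at 12.4 and 10.1 CPM to APOB at 289 and 272 CPM. AFP stood at 7.61 and 7.46 CPM, FOXA2 at 6.88 and 10.4 CPM and APOA1 at 2.20 and 1.64 CPM. In the same libraries all 6 pluripotency markers passed and summed to 1149 and 1172 CPM, as did 5 of 8 neuron markers (188 and 187 CPM) and 3 of 6 fibroblast markers (191 and 199 CPM). Fewer cells of a type and less RNA per cell cannot be told apart in such bulk libraries.

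The study asked whether microRNAs (miRNAs), short RNAs that pair with mRNAs through a seed at bases 2 to 8, direct mRNAs to P-bodies, and examined let-7, miR-300 and miR-381 targets. The mature human sequences from RefSeq (GRCh38.p14) are shown with the seed in capitals, together with miR-302a-3p, an embryonic stem cell miRNA. miR-300 and miR-381-3p share 1 seed.
hsa-let-7a-5p: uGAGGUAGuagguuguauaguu
hsa-miR-300: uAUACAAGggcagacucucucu
hsa-miR-381-3p: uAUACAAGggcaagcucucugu
hsa-miR-302a-3p: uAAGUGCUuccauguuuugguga

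Matches to these seeds (CTACCTC for let-7a, CTTGTAT for miR-300 and miR-381, AGCACTT for miR-302a, sense strand only) were looked for in the 3′ UTR of each human transcript. Among the matches found were 1 CTTGTAT in SMAD5, 4 CTTGTAT and 2 AGCACTT in SMAD9, 1 AGCACTT in SMAD3, and 1 CTTGTAT and 5 AGCACTT in SMAD2. These are not all of the matches found, so that nothing can be read from a seed that is not named here for SMAD5. Windows of 27 bases are shown for some of these matches on hg38, with the match in capitals, because SMAD5 and SMAD3 lay farthest apart in P-body change among the members given later and SMAD9 held the most CTTGTAT matches per base.
SMAD5, CTTGTAT, chr5:136178624-136178650, plus strand: tgtcagcttaCTTGTATcagcctccct
SMAD9, CTTGTAT, chr13:36848606-36848632, minus strand: cagggagtggCTTGTATcatttcagat
SMAD9, CTTGTAT, chr13:36846711-36846737, minus strand: taatggattcCTTGTATaaatgctact
SMAD9, CTTGTAT, chr13:36846590-36846616, minus strand: tatggtgaatCTTGTATgggaaccatt
SMAD9, CTTGTAT, chr13:36845936-36845962, minus strand: aaacaaaaaaCTTGTATttccctgcag
SMAD3, AGCACTT, chr15:67191654-67191680, plus strand: gatacctgccAGCACTTctgcaagctg

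At least 1 CTTGTAT was held by 35.3% of the 1194 other 3′ UTRs within 20% of the length of that of SMAD5, and by 27.4% of the 1835 near that of SMAD9, where the mean was 0.334 per 3′ UTR. AGCACTT was held by 48.4% of the 3′ UTRs near SMAD9 in length and by 54.3% of the 1486 near SMAD3. None of the 3 seed matches was found in the 3′ UTRs of SMAD1, SMAD4, SMAD6 and SMAD7, and CTACCTC was found only in SMAD2, with 2 matches in a 3′ UTR of 32870 bases. A match is only a description of the letters, since small RNAs were not analysed here.

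SMAD5, a BMP receptor substrate, was the most abundant member per transcript length in the cytoplasm of each human cell type and had the largest P-body to cytoplasm ratio of the family in each of them. In mESC it shared that place with Smad6, which rests on few counts. It spans 5:136132845-136188747 on the plus strand of hg38, in 8 exons. In HEK293T its level was 4486 and 4499 CPM in the P-body libraries and 1479.9 and 1513 CPM in cytoplasm. In liver bud progenitors it was 1606 and 1565 CPM in P-bodies against 682 and 617 CPM, and in neurons 612 and 695 CPM against 190.3 and 191 CPM. The P-body libraries lay above the cytoplasm libraries in each of these cell types without overlap. Mouse Smad5 gave 351 and 343 CPM in mESC P-bodies and 171 and 162 CPM in cytoplasm, again without overlap. The log2 change was 1.59 ± 0.04 (SE, n = 2 against 2) in HEK293T cells, 1.29 ± 0.05 in liver bud progenitors, 1.78 ± 0.09 in the neurons and 1.06 ± 0.05 in mESC. By raw counts SMAD5 ranked 7 of 22286 genes in both HEK293T P-body libraries, where it took 0.428% and 0.431% of all counts. In the human transcript 188 of 6983 stretches of 31 bases recur in other genes, and 49 of those recur in 7SL genes or their copies. RN7SL1 and RN7SL2, the 7SL genes, gave log2 changes of -2.61 ± 0.07 and -2.90 ± 0.06 in HEK293T, of 0.56 ± 0.09 and 0.45 ± 0.07 in liver bud progenitors and of -1.08 ± 0.12 and -1.23 ± 0.10 in neurons. These 2 genes were chosen after their values were seen. Their direction was opposite to that of SMAD5 in HEK293T and neurons and the same in liver bud progenitors, and the part of such reads in the level of SMAD5 was not tested. Recurring stretches were not particular to SMAD5. They numbered 2191 of 34596 in human SMAD2, 880 of 8742 in SMAD4 and 202 of 5528 in SMAD9. Of these 411, 17 and 42 recur in 7SL genes or their copies. In SMAD4 758 recur in ENSG00000267699 on the same strand. Their part in the levels of these members was not tested either.

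**Figure D1:**
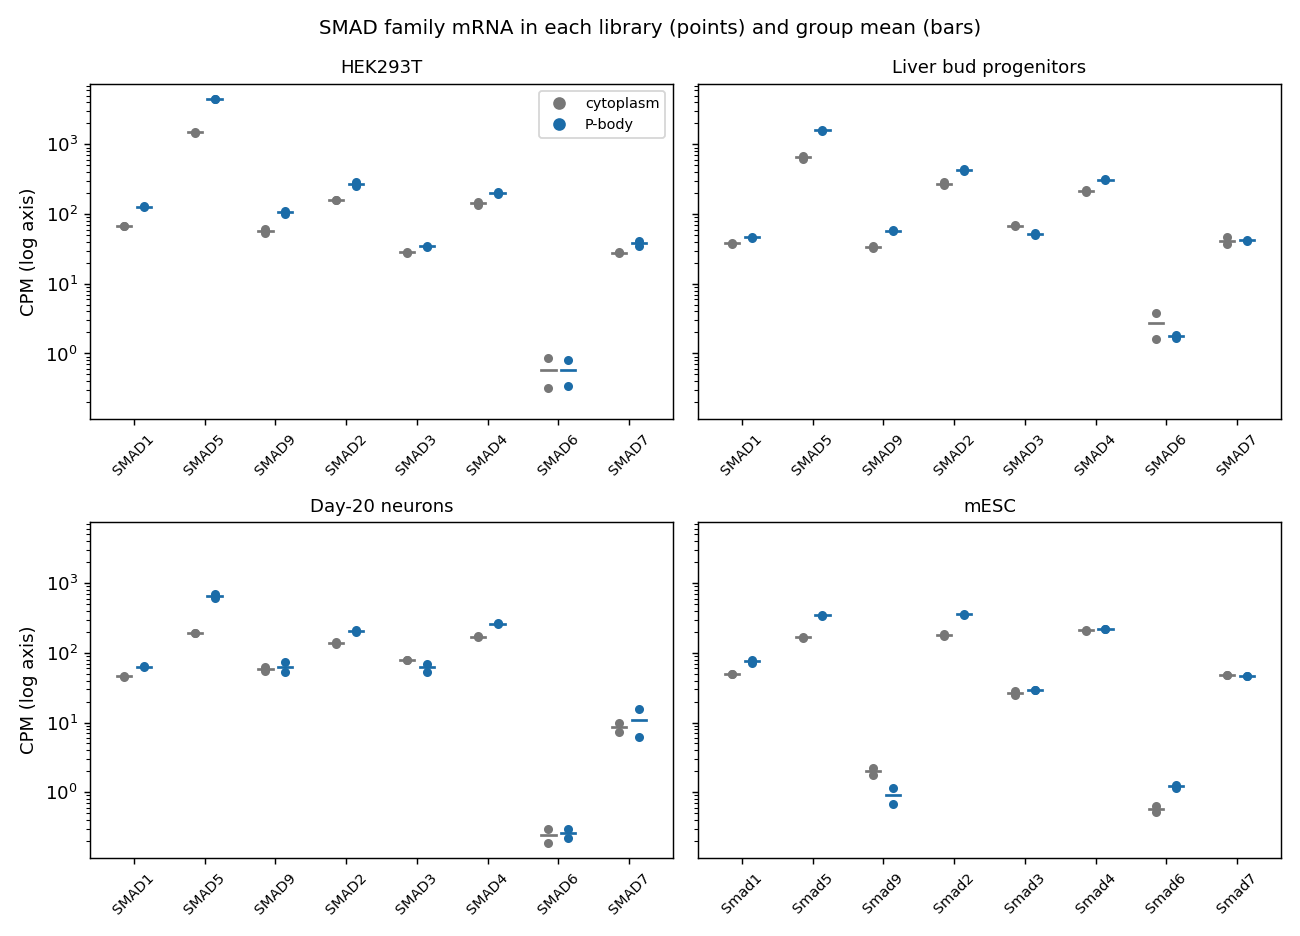
Level of each SMAD mRNA in CPM (log axis) in the 2 cytoplasm libraries (grey points) and 2 P-body libraries (blue points) of each cell type, with a bar at the group mean. SMAD5 tops each human panel, at 4493 CPM in HEK293T P-bodies, and SMAD6 lies at the bottom of each human panel, under 4 CPM.

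SMAD1 and SMAD9, the other BMP receptor substrates, differed from SMAD5 in level and in ratio. SMAD1 stood at 126 and 129 CPM in HEK293T P-bodies and 68.2 and 66.7 CPM in cytoplasm, at 45.5 and 47.0 against 36.8 and 39.0 CPM in liver bud progenitors, and at 62.3 and 64.9 against 47.1 and 45.2 CPM in neurons. In mESC, Smad1 stood at 71.7 and 80.2 against 49.5 and 50.5 CPM, so both P-body libraries were the higher in all 4 cell types. Its log2 change was 0.92 ± 0.08 in HEK293T cells, 0.29 ± 0.11 in liver bud progenitors, 0.46 ± 0.14 in the neurons and 0.60 ± 0.08 in mESC. The liver bud change kept its sign and missed the call under DESeq2, RLE size factors, library size alone, filterByExpr, a single fit of all human libraries, the removal of ribosomal RNA genes and the removal of any library, at 0.10 to 0.31, and the neuron change missed it without either cytoplasm library. In the transcript 348 of 2972 stretches of 31 bases lie antisense to SMAD1-AS1, which had 121 and 140 counts in HEK293T P-bodies against 1843 and 2231 for SMAD1, and the counting is not stated to use strand.

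SMAD9 stood at 112 and 99.2 CPM in HEK293T P-bodies against 53.9 and 61.6 CPM in cytoplasm, and at 56.3 and 58.6 against 32.9 and 35.3 CPM in liver bud progenitors. The fractions did not overlap in these 2 cell types. In neurons it stood at 73.3 and 53.1 CPM in P-bodies and 54.4 and 62.6 CPM in cytoplasm, so that the fractions overlapped. Mouse Smad9 was near the floor, with 7 and 11 counts in P-bodies and 21 and 17 in cytoplasm. The log2 change was 0.87 ± 0.08 in HEK293T cells, 0.75 ± 0.11 in liver bud progenitors, 0.11 ± 0.17 in the neurons and -1.11 ± 0.51 in mESC.

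SMAD2 and SMAD3, the substrates of TGF-β and activin receptors, went different ways in the cells made from UCLA4. SMAD2 stood at 250 and 284 CPM in HEK293T P-bodies against 160.1 and 157 CPM in cytoplasm, at 420.1 and 444 against 288 and 259 CPM in liver bud progenitors, at 198 and 216 against 132 and 145 CPM in neurons, and as Smad2 at 365 and 350.5 against 175 and 187 CPM in mESC. Its P-body libraries were the higher in each cell type. Its log2 change was 0.75 ± 0.06, 0.66 ± 0.06, 0.58 ± 0.10 and 0.99 ± 0.05 in the same order. SMAD3 stood at 35.2 and 33.6 CPM in HEK293T P-bodies against 28.7 and 27.7 CPM in cytoplasm, with the P-body libraries the higher. In liver bud progenitors the order was turned, with 49.8 and 53.7 CPM in P-bodies against 70.6 and 66.5 CPM, as it was in neurons, with 70.3 and 53.2 against 79.8 and 78.0 CPM. In mESC, Smad3 stood at 29.3 and 29.7 against 25.0 and 28.3 CPM. The log2 change of SMAD3 was 0.29 ± 0.12 in HEK293T cells, -0.40 ± 0.10 in liver bud progenitors, -0.35 ± 0.15 in the neurons and 0.15 ± 0.12 in mESC, and scaling by library size alone turned the mESC value to -0.25. The HEK293T change of SMAD3 lost its call without either P-body library or without cytoplasm replicate 2, at 0.25 to 0.32, and with library size alone, at 0.16. The neuron change of SMAD3 was not called, and it was called lower in the single fit of all human libraries, at -0.47, and without P-body replicate 1, at -0.57.

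SMAD4, the common partner, stood at 207 and 196 CPM in HEK293T P-bodies against 150.2 and 137 CPM, at 307 and 314 against 219 and 207 CPM in liver bud progenitors, and at 265 and 256 against 166 and 174 CPM in neurons. The P-body libraries were the higher in these 3 cell types. In mESC, Smad4 stood at 218 and 222 CPM in P-bodies and 212 and 206 CPM in cytoplasm, or 219.9 ± 3.31 (SD, n = 2) and 209 ± 4.28 CPM. The log2 change was 0.49 ± 0.07 in HEK293T cells, 0.55 ± 0.06 in liver bud progenitors, 0.61 ± 0.09 in the neurons and 0.07 ± 0.05 in mESC, where scaling by library size alone gave -0.33.

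Of the inhibitory members, SMAD7, which blocks type I receptors, stood at 40.7 and 35.3 CPM in HEK293T P-bodies against 27.3 and 28.4 CPM, with no overlap, and at 41.3 and 42.8 against 36.8 and 46.7 CPM in liver bud progenitors, with overlap. In neurons it stood at 6.29 and 15.6 CPM in P-bodies and 9.73 and 7.40 CPM in cytoplasm, so the 2 P-body libraries lay on either side of both cytoplasm libraries. Smad7 stood at 46.3 and 47.3 against 47.7 and 47.3 CPM in mESC. Its log2 change was 0.44 ± 0.12 in HEK293T cells, 0.01 ± 0.12 in liver bud progenitors, 0.36 ± 0.41 in the neurons and -0.02 ± 0.09 in mESC, and the HEK293T call was lost without P-body replicate 1, at 0.34, or in the single fit of all human libraries, at 0.57. In neurons it was 0.86, and called, without P-body replicate 1 and -0.45 without P-body replicate 2. SMAD6 had 5 and 14 counts in HEK293T P-bodies and 4 and 10 in cytoplasm, 15 and 18 against 11 and 30 in liver bud progenitors, 2 and 3 against 2 and 3 in neurons, and 13 and 11 against 6 and 5 in mESC. At these counts no change of SMAD6 between the fractions was called, with SEs of the log2 change from 0.47 in liver bud progenitors to 1.67 in neurons. A change is thereby not excluded.

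Under the threshold of an adjusted p under 0.05 (edgeR, over all genes tested), 7 of 8 members were called higher in HEK293T P-bodies and 0 lower, where 19.3% of all genes were called higher and 22.8% lower. In liver bud progenitors 5 members were called higher and 1, SMAD3, lower, beside 21.4% and 17.1% of all genes. In neurons 4 were called higher and 0 lower, beside 14.6% and 14.1%, and in mESC 3 were called higher and 0 lower, beside 25.8% and 20.6%. The median log2 change over the 8 members was 0.62 in HEK293T cells, 0.42 in liver bud progenitors, 0.41 in the neurons and 0.37 in mESC, beside -0.01, -0.09, 0.19 and -0.11 over all genes tested. These counts follow from the choice of the family and are not read further. SMAD5 and SMAD2 were called higher in all 4 cell types under each of the alternatives run, those without 1 library included. With library size alone, Smad4, Smad7 and Smad9 were called lower in mESC.

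**Figure D2:**
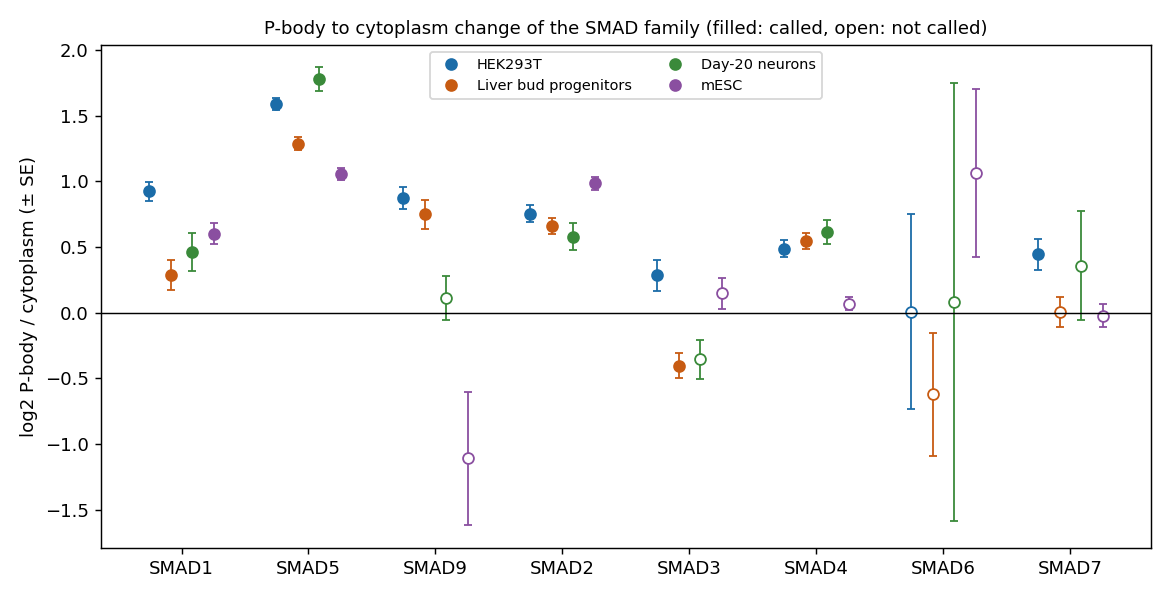
Log2 P-body to cytoplasm change of each SMAD (points, with SE bars) in the 4 cell types, filled where called at an adjusted p under 0.05 and open otherwise. SMAD5 has the highest point in every cell type except mESC, where its 1.06 lies level with Smad6 at 1.06 (an SE of 0.64), and SMAD3 lies below 0 in liver bud progenitors and neurons; with library size alone the mESC points of Smad3 and Smad4 fall below 0.

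Neurons and liver bud progenitors share the parent line and the library kind, and the difference between their P-body changes was fitted over 8 libraries. The change of SMAD5 was larger in neurons by 0.48 ± 0.10 on the log2 scale, and it was the 1 member called higher, with 0 called lower, where 9.21% of all genes were called higher and 8.5% lower. It kept that sign and missed the threshold without neuron cytoplasm replicate 1, at 0.41, or replicate 2, at 0.39. SMAD9 gave a difference of -0.65 ± 0.22, which was not called. It was called at -0.76 in the single fit of all human libraries, at -0.69 without ribosomal RNA genes, at -0.99 and -0.55 without neuron P-body replicate 1 and 2, and at -0.81 without neuron cytoplasm replicate 1. The other differences were 0.17 ± 0.18 for SMAD1, -0.09 ± 0.12 for SMAD2, 0.04 ± 0.19 for SMAD3, 0.06 ± 0.11 for SMAD4 0.34 ± 0.41 for SMAD7 and, on few counts, 0.69 ± 1.28 for SMAD6, none of which was called. SMAD4 was called higher with library size alone, at 0.42, and SMAD7 without neuron P-body replicate 1, at 0.75.

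The cytoplasm of these 2 cell types also differed in SMAD mRNA. SMAD5, SMAD2, SMAD7 and SMAD6 were lower in neurons than in liver bud progenitors, and SMAD1, SMAD9 and SMAD3 were higher, with no overlap between the libraries of the groups. The log2 difference, neuron minus liver bud, was -1.56 ± 0.08 for SMAD5, -0.77 ± 0.08 for SMAD2, -2.07 ± 0.18 for SMAD7, 0.49 ± 0.13 for SMAD1, 0.98 ± 0.13 for SMAD9 and 0.41 ± 0.11 for SMAD3. SMAD4 gave -0.11 ± 0.08 and was not called, although its libraries did not overlap either. A lack of overlap is therefore not read as a difference here, and its share over all genes is not given. SMAD6 gave -3.21 ± 0.76, on 41 counts in liver bud cytoplasm and 5 in neuron cytoplasm over both libraries. Its ratio per raw total count, liver bud over neuron, was 12.9, with an exact 95% interval of 5.12 to 42.0 that covers counting error only. Unlike the log2 differences, this ratio was not scaled beyond library size. Thus 3 members were called higher and 4 lower, beside 26% and 25.8% of all genes. With library size alone, which moved the median of all genes by -0.38, SMAD1 and SMAD3 gave 0.11 and 0.03 and were not called and SMAD4 gave -0.50 and was called lower. Without liver bud cytoplasm replicate 2, SMAD6 gave -2.45 and was not called.

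Levels can be compared between members only per length. Per kilobase of transcript (CPM per kb, MANE Select transcript in human), HEK293T cytoplasm ran from SMAD5, at 213 ± 3.31 (SD, n = 2), over SMAD1, at 22.5 ± 0.35, SMAD4, at 16.4 ± 1.06, SMAD9, at 10.4 ± 0.98, and SMAD7, at 8.34 ± 0.24, to SMAD2, at 4.57 ± 0.07, SMAD3, at 4.36 ± 0.10, and SMAD6, at 0.15 ± 0.10. The place of SMAD2 rests on a transcript of 34626 bases: per kilobase of coding sequence it came second, at 113 ± 1.72, after SMAD5 at 1070.3 ± 16.6. In liver bud cytoplasm SMAD5 led at 92.7 ± 6.59 CPM per kb of transcript, SMAD4 followed at 24.2 ± 1.00, and SMAD1, at 12.6 ± 0.52, and SMAD7, at 12.5 ± 2.1, overlapped. In neuron cytoplasm the order was SMAD5, at 27.2 ± 0.09, SMAD4, at 19.4 ± 0.58, SMAD1, at 15.4 ± 0.45, SMAD3, at 12.2 ± 0.20, SMAD9, at 10.5 ± 1.04, SMAD2, at 4.0 ± 0.25, SMAD7, at 2.56 ± 0.49, and SMAD6. In mESC cytoplasm Smad4 led at 61.9 ± 1.27, before Smad5 at 25.3 ± 0.98 and Smad2 at 22.3 ± 1.07, whereas per kilobase of coding sequence Smad2, at 129 ± 6.14, and Smad4, at 126 ± 2.59, overlapped and Smad5 followed at 119 ± 4.64. SMAD5 thus led in the human cytoplasm on both lengths and did not lead in mESC on either.

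Transcript GC content was not used in the choice of the family. SMAD5 had the lowest, 36.9%, at percentile 4.84 of the 19582 human genes, followed by SMAD2 at 40.3%, SMAD4 at 41.1%, SMAD1 at 43.1%, SMAD9 at 43.2%, SMAD3 at 51.1%, SMAD7 at 57.0% and SMAD6 at 58.8%. Mouse Smad5 was also the lowest of its family, at 44.5%, but lay at percentile 28.3 of the 21677 mouse genes. Smad2 stood at 44.9%, and Smad6 was the highest, at 60.8%. Across the genes whose mean reached 10 CPM, Spearman's rho between GC content and log2 change was -0.56 in HEK293T (8011 genes), -0.73 in liver bud progenitors (8279), -0.69 in the neurons (8024) and -0.72 in mESC (7438), a description over genes that share libraries and differ in length and level. Genes within 1 point of the GC content of SMAD5 changed by a median of 0.64 in HEK293T cells, 0.99 in liver bud progenitors and 0.97 in neurons, below the 1.59, 1.29 and 1.78 of SMAD5. Genes near SMAD3 had medians of -0.36, -0.22 and -0.38, beside 0.29, -0.40 and -0.35 for SMAD3, and those near SMAD7 had -0.95, -0.52 and -0.77, beside 0.44, 0.01 and 0.36. For SMAD2 and SMAD4 the difference from genes of like GC content was between -0.16 and 0.27 in the human cell types. It was 0.56, -0.19 and 0.17 for SMAD1 and 0.53, 0.29 and -0.16 for SMAD9 in HEK293T, liver bud progenitors and neurons. In mESC it was 0.65 for Smad1, 0.43 for Smad5, 0.41 for Smad2, 0.37 for Smad3, 0.35 for Smad7 and -0.07 for Smad4. SMAD6, and Smad9 in mESC, are left out for their few counts.

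**Figure D3:**
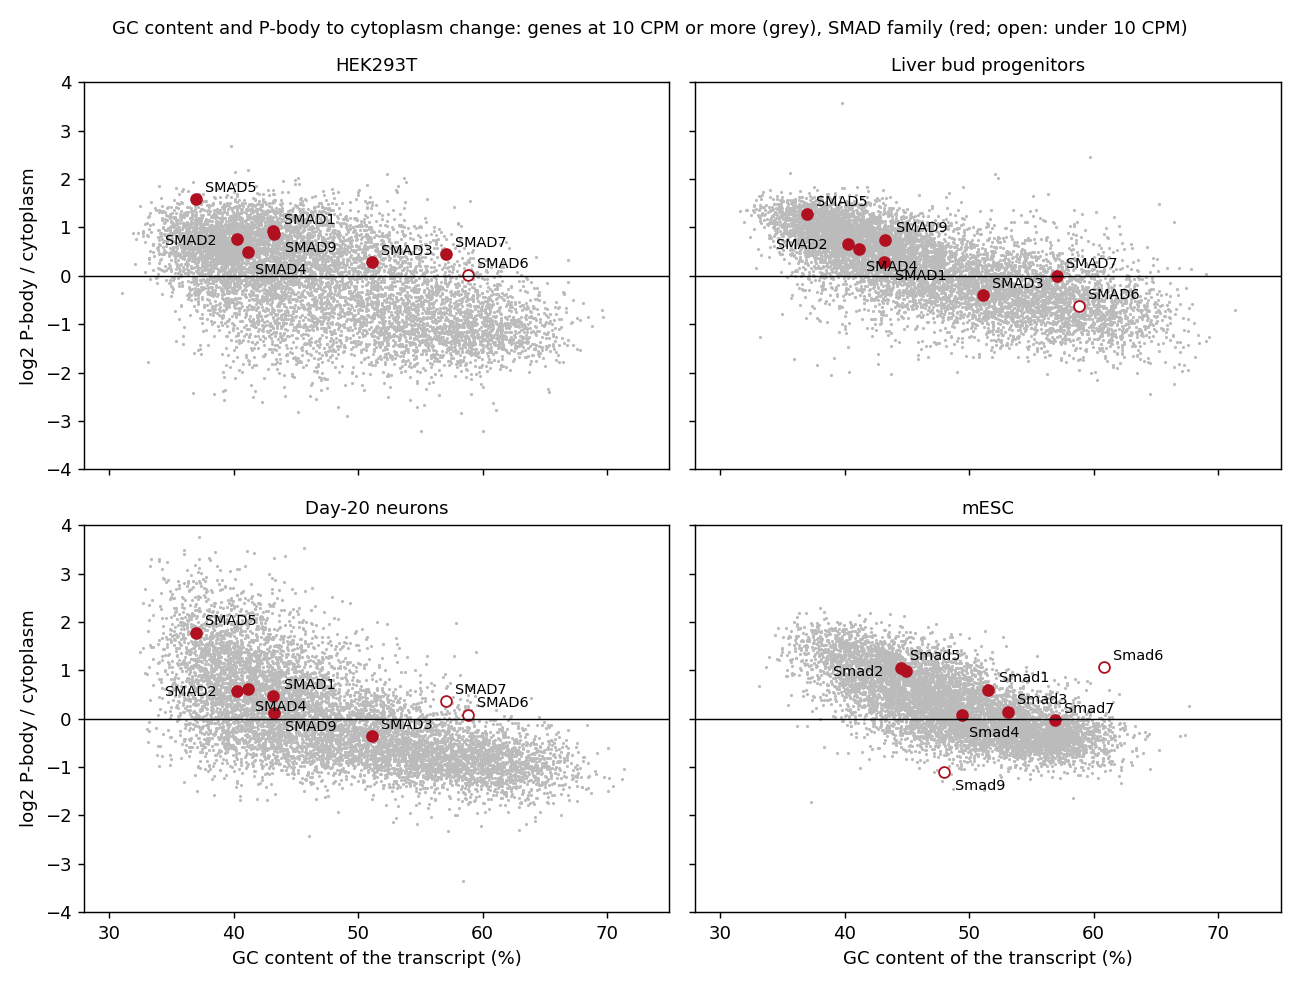
GC content of the transcript (percent, horizontal) against the log2 P-body to cytoplasm change (vertical) for genes at 10 CPM or more (grey) and the SMAD family (red, open where the mean is under 10 CPM). The grey cloud falls from left to right in each panel (rho from -0.73 to -0.56), with SMAD5 near its left end in the human panels and SMAD3, SMAD7 and SMAD6 further right; 1 to 4 genes per panel lie outside the axes.

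Of the genes with at least 10 CPM in each human cell type (6312), those nearest to each member in log2 change over the 3 human cell types were listed, by the root mean square difference. SMAD5 lay nearest to CNST (0.04) and ZCCHC7 (0.04), SMAD1 to LSG1 (0.02) and OFD1 (0.03), SMAD9 to NLGN1 (0.04) and ZNF652 (0.08), SMAD2 to CAMSAP2 (0.03) and DDX47 (0.05), SMAD3 to SNX29 (0.05) and TMEM140 (0.06), and SMAD4 to SPTLC1 (0.02) and STX17 (0.02). Among the members, SMAD4 and SMAD2 were the closest pair, at 0.17, and SMAD3 and SMAD5 the farthest apart, at 1.74.

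The rest of the pathway was followed through 61 genes in 8 roles, of which 53 were in the mouse table used here. In HEK293T 28 of 60 measured genes were called higher in P-bodies and 7 lower, and in liver bud progenitors 22 of 61 higher and 13 lower, or 13 and 17 with library size alone. In neurons 8 of 60 were called higher and 8 lower, and in mESC 20 of 53 higher and 7 lower, which turned to 7 and 19 with library size alone. Median log2 changes were 0.47, 0.23, 0.04 and 0.27 in the same order, set against the medians of all genes given before. As shares of the measured pathway genes the calls can be set against the 19.3% and 22.8%, 21.4% and 17.1%, 14.6% and 14.1%, and 25.8% and 20.6% of all genes called higher and lower in the same order. In neurons they lay near those of all genes.

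Among the receptors, BMPR1A, a type I BMP receptor kinase, rose in P-bodies of all 4 cell types, by 0.96 ± 0.06 (adjusted p = 2.67e-21, edgeR) in HEK293T, 0.88 ± 0.07 (6.80e-18) in liver bud progenitors, 1.46 ± 0.16 (1.25e-05) in the neurons and 1.16 ± 0.05 (4.16e-16) in mESC. Its change was larger in neurons than in liver bud progenitors by 0.57 ± 0.15 (adjusted p = 0.0175). ACVR1B, a type I activin receptor, rose by 0.38 ± 0.11 in HEK293T (adjusted p = 0.00352), fell by 0.80 ± 0.14 on the log2 scale in liver bud progenitors and by 0.95 ± 0.15 in neurons. In mESC it gave -0.02 ± 0.14, which was not called. BMPR2, the type II BMP receptor, rose by 0.18 ± 0.06 in HEK293T, by 0.65 ± 0.05 in liver bud progenitors and by 0.97 ± 0.04 in mESC. Its change in neurons, -0.17 ± 0.09, was not called and was lower than that in liver bud progenitors by -0.82 ± 0.11 (adjusted p = 6.23e-05). Of 7 type I receptors measured, 6, 3, 2 and 3 were called higher in HEK293T, liver bud progenitors, neurons and mESC and 0, 1, 1 and 1 lower. Of 4 type II receptors 3, 3, 0 and 3 were called higher and 0 lower in each. Over all genes 19.3%, 21.4%, 14.6% and 25.8% were called higher in that order and 22.8%, 17.1%, 14.1% and 20.6% lower. These shares also stand beside the P-body counts by role below. With few genes per role, the counts by role are not read further.

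Of the 9 ubiquitin ligases and inhibitors that act on SMAD proteins, 7, 6, 3 and 7 were called higher in the same order and 0, 1, 1 and 1 lower. RNF111, a ubiquitin ligase that removes inhibitors of the pathway, rose in all 4 cell types, from 0.47 ± 0.07 in liver bud progenitors to 1.63 ± 0.10 in neurons (adjusted p = 6.24e-08). LEMD3, which binds and represses receptor-regulated SMADs, also rose in all 4, from 0.34 ± 0.08 in liver bud progenitors to 1.02 ± 0.06 in HEK293T (1.77e-21). SMURF1, a ligase for SMAD1 and SMAD5, rose by 1.18 ± 0.08 in HEK293T (adjusted p = 3.08e-19), fell by 0.25 ± 0.08 in liver bud progenitors and by 0.34 ± 0.09 in mESC. In neurons it gave 0.06 ± 0.13, which was not called. Among the nuclear partners, 2, 1, 1 and 3 were called higher and 4, 3, 2 and 3 lower. TGIF1, a repressor that binds SMADs, rose by 1.5 ± 0.09 in HEK293T and 0.52 ± 0.06 in mESC. SKIL, another repressor, rose in all 4 cell types, from 0.48 ± 0.08 in HEK293T to 1.25 ± 0.06 in liver bud progenitors. SKI, a related repressor, fell in all 4, from -0.42 ± 0.06 in mESC to -1.07 ± 0.14 in HEK293T. EP300, a coactivator of SMADs, fell by 1.11 ± 0.06 in liver bud progenitors, by 0.26 ± 0.06 in HEK293T and by 0.26 ± 0.08 in neurons. It rose by 0.17 ± 0.04 in mESC, where library size alone shifted the median of all genes by -0.40.

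Of 11 ligands, 4 were called higher and 1 lower in HEK293T, 2 and 4 in liver bud progenitors and 0 and 1 in neurons, and of the 10 analysed in mESC 0 and 1. GDF11 rose in P-bodies by 0.55 ± 0.10 in HEK293T and 0.48 ± 0.07 in liver bud progenitors and fell by 0.59 ± 0.08 in neurons, and its change was lower in neurons than in liver bud progenitors by -1.07 ± 0.11 (adjusted p = 5.71e-06). Of the 6 co-receptors, 2, 3, 1 and 2 were called higher in HEK293T, liver bud progenitors, neurons and mESC and 0, 0, 2 and 1 lower. TDGF1, a co-receptor of nodal, rose by 0.97 ± 0.07 in liver bud progenitors and 0.35 ± 0.04 in mESC. Of the 7 secreted inhibitors, 2 were called higher and 2 lower in liver bud progenitors, where CER1 fell by 0.55 ± 0.11 and GREM1 rose by 0.53 ± 0.16. Of the 10 target genes, 4 were called higher and 2 lower in HEK293T, where ID3, a BMP target, fell by 1.38 ± 0.19.

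**Figure D4:**
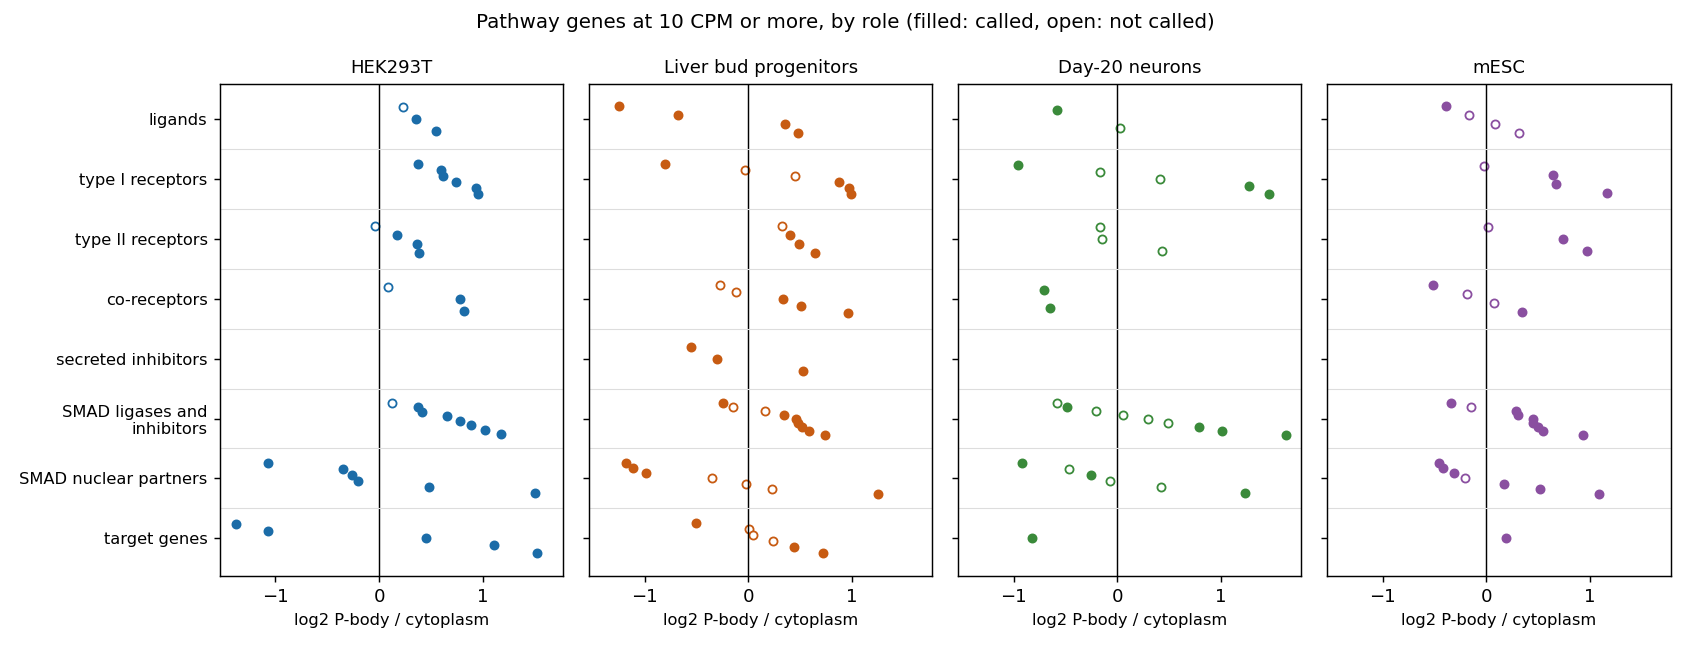
Log2 P-body to cytoplasm change of the pathway genes whose mean reached 10 CPM, in rows by role and in panels by cell type, filled where called at an adjusted p under 0.05. Type I receptors and SMAD ligases and inhibitors lie mostly to the right of 0 in HEK293T, while nuclear partners lie on both sides of 0 in each panel; with library size alone the mESC calls turn from 20 higher and 7 lower to 7 higher and 19 lower.

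In cytoplasm, neurons and liver bud progenitors differed in most of the pathway, with 13 of 61 genes called higher in neurons and 34 lower, beside 26% and 25.8% of all genes, and a median log2 difference of -1.13 beside -0.16 over all genes. Of the secreted inhibitors 5 of 7 were lower and 1 higher, and of the target genes 7 of 10 were lower and 0 higher. BMP4 was lower by -4.58 ± 0.26 (adjusted p = 1.98e-26), BMPR1A by -1.98 ± 0.11 (1.72e-26), SKIL by -2.66 ± 0.11 (2.38e-35) and ID3 by -3.53 ± 0.28 (4.34e-19). BMPR1B, a type I BMP receptor kinase related to BMPR1A, was higher by 2.14 ± 0.18 (2.25e-17) and RGMA, a BMP co-receptor, by 4.0 ± 0.10 (3.62e-47). In the difference of P-body changes between these cell types, 10 of 61 were called higher in neurons and 8 lower, beside 9.21% and 8.5% of all genes. Among them were RNF111, larger by 1.16 ± 0.12 (adjusted p = 1.10e-05), and PPM1A, a phosphatase of SMADs, lower by -1.33 ± 0.19 (0.000166).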

How the data were processed

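RNA of sorted P-bodies and of cytoplasm was sequenced in 16 libraries, and what the authors deposited are unnormalized read counts in whole numbers, 1 row per symbol, for hg38 and mm10. Per the study's methods, snapTotal-seq reads went through an nf-core RNA-seq pipeline with refGene annotation and salmon, and Smart-seq reads through hisat2 and featureCounts. Which of these made the polyA columns is not given in the sources used here. Salmon divides reads of repeated sequence among genes. The authors' tables of DESeq2 results (mean, log2 fold change, its error, statistic, p and adjusted p) were not used.

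Groups came from the labels. Fractions were compared within a cell type with edgeR 4.0.16 (R 4.3.3, quasi-likelihood test, TMM, two-sided, no covariate) without the genes that had 0 counts throughout. A gene was called where its adjusted p (Benjamini-Hochberg, over all genes tested) was under 0.05. The fit was tested on simulated data. CPM values use the effective library sizes of the 4 libraries of a cell type, and since no molecular identifiers were counted, reads are not independent molecules and intervals and floors cover counting error only. GC content, lengths, coordinates and shared stretches of 31 bases came from GENCODE 44 (MANE Select transcript) and M21 (longest coding transcript). The alternatives tried were a replicate block, library size only, RLE size factors, DESeq2 1.42.0, a filterByExpr filter, a single fit over the human libraries, removal of ribosomal RNA genes, and leaving out each library.

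The members, the pathway list and the markers were chosen with earlier results of these data known. The text names all 8 members. For the pathway a rule picked, per comparison and role, the called gene with the smallest p in each direction with a mean of at least 10 CPM. Only some of the genes so picked are named, so those named are not the full output of the rule. Values of some of these genes in other cell types are also given. Likeness was measured for members with at least 10 CPM in each human cell type, and the 2 nearest genes are named. The pathway genes BMP2, NOG, GREM1, CER1, ID1, ID2, ID3 and MSX1 were not analysed in mESC. A target gene and a seed match that the rules would name are not reported here.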

Additional observations from a re-analysis of the deposited data

Results flagged for a closer look

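The P-body change of SMAD5 was larger in neurons than in liver bud progenitors by 0.48 on the log2 scale, a difference that passed the threshold of edgeR over all genes (adjusted p under 0.05) and was lost without either neuron cytoplasm library. Because SMAD5 was among the members chosen on these ratios, this is a description, and passing the threshold is not read as a test.

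SMAD3 lay on opposite sides of 0 in different human cell types, with both P-body libraries above both cytoplasm libraries in HEK293T, at 0.29, and both below in liver bud progenitors, at -0.40, and in neurons, at -0.35. A lack of overlap is not read as a difference here. The HEK293T value of SMAD3 lost its call with library size alone, at 0.16, and with the replicate block, at 0.29, and its neuron value was not called. The difference between HEK293T and the other cells was not tested, and cell type and library kind cannot be told apart in it.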

How the results depend on the processing

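Across all alternatives and members no log2 change that was called in the comparison as reported turned its sign. Smad4 in mESC, at 0.07 and not called as reported, was called lower with library size alone, at -0.33. With library size as the only scaling factor, there was a shift of the median over all genes (log2) of -0.13 in HEK293T cells, -0.19 in liver bud progenitors, 0.16 in the neurons, -0.40 in mESC, -0.38 between the cytoplasms and 0.36 in the difference of P-body changes, and the single fit of all human libraries moved it by 0.13, -0.02, -0.11, -0.05 and -0.11 in those it covers. With library size only, pathway genes called higher numbered 13 in liver bud progenitors (22 in the comparison as reported) and 7 in mESC (20), those called lower in mESC 19 (7), members called lower in mESC 3 (0), members called higher between the cytoplasms 1 (3) and members called higher in the difference of P-body changes 2 (1). All genes called higher and lower were then 3822 and 4850 in liver bud progenitors (4708 and 3747 as reported), 3839 and 2356 in neurons (3220 and 3123), 2591 and 6609 in mESC (4104 and 3271), 4173 and 7270 between the cytoplasms (5696 and 5648) and 3520 and 940 in the difference of P-body changes (2050 and 1892, and 2601 and 1536 with filterByExpr). DESeq2 called 3 pathway genes lower in HEK293T (7), 14 higher in liver bud progenitors (22) and 1803 genes of all lower in mESC. The single fit called 3 pathway genes lower in HEK293T (7), 7 lower in liver bud progenitors (13), 14 higher and 16 lower in neurons (8 and 8), 4952 genes of all lower in neurons, 1 member lower in neurons (0) and 1 lower in the difference of P-body changes (0). That difference also had 1 member called lower without ribosomal RNA genes, and filterByExpr called 1 member lower in mESC (0). The cause of these moves was not tested.

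Leaving out 1 library at a time gave, in neurons, 0 to 1 members lower, 7 to 14 pathway genes higher and 5 to 12 lower, and in the difference of P-body changes 0 to 2 members higher, 0 to 1 lower, 5 to 12 pathway genes higher and 6 to 15 lower. The neuron pathway counts moved without P-body replicate 1 (14 higher) and cytoplasm replicate 1 (5 lower), and those of the difference without liver bud P-body replicate 2 (5 higher), liver bud cytoplasm replicate 1 (6 higher), neuron cytoplasm replicate 2 (5 higher) and neuron P-body replicate 2 (15 lower). All genes called higher and lower ran from 2109 to 4394 and from 1892 to 4433 in neurons, lowest without cytoplasm replicate 1, and from 1193 to 2772 and from 1160 to 3628 in the difference of P-body changes, where leaving out any of the 8 libraries moved at least 1 of these counts by over 1.5 times. A group left with 1 library was assumed to vary like the others. Equal replicate numbers did not mark shared cultures in the labels, and deviations of equally numbered libraries correlated at -0.17 in HEK293T cells, 0.05 in liver bud progenitors, 0.13 in the neurons and -0.03 in mESC. With the replicate block, 1 member was called lower in neurons (SMAD3, at -0.37) and 1 in the difference of P-body changes (SMAD9, at -0.66), against 0 and 0 without it, and SMAD3 lost its call in HEK293T, at 0.29. Depth limits SMAD6 in all cell types and Smad9 in mESC, where counts stayed at or under 30 per library.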
